A study of Danio rerio with 7 samples.

Results

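The Wnt ligands, receptors and antagonists described here were all gene IDs of the deposited table whose zebrafish gene name begins with WNT, FZD, FRZB, SFRP, DKK, LRP5, LRP6, RSPO, LGR4, LGR5, LGR6, WIF1, AXIN1, AXIN2, LEF1, TCF7, CTNNB1, NOTUM, PORCN, ROR1, ROR2, DVL or WLS. The rule found 77 of 31388 gene IDs, with 66 distinct symbols, of which 11 were each shared by a pair of IDs. Fish of 3 to 9 months gave the RNA, taken from cells of the apex of the ventricle that were sorted for mCherry at 60 or 7 days after cryoinjury (dpi), a freezing injury from which the fish heart regenerates. All fish, in both groups, carried postnb:CreERT2 and the reporter ubb:loxP-GFP-loxP-mCherry and received 10 µM 4-hydroxytamoxifen (4-OHT) at 3 and 4 dpi. The label thus marks cells in which regulatory sequence of the periostin gene postnb drove the Cre early after injury, and their descendants. No uninjured or untreated group is part of the comparison. Each library was 1 pool of 3 to 5 hearts. The 60 dpi group held 3 such pools, numbered 1, 2 and 4, the 7 dpi group held 4, numbered 1 to 4, and values per library follow that order throughout.

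Wnt proteins are lipid-modified secreted ligands. The acyltransferase PORCN adds the lipid and the carrier WLS takes the ligand to the cell surface. At the receiving cell a ligand binds a Frizzled receptor together with LRP5 or LRP6, Dishevelled is recruited, the destruction complex that holds AXIN is disabled, and beta-catenin accumulates and acts with LEF1 and TCF7 family factors on target genes. Other ligands act through ROR receptors and cell polarity proteins without beta-catenin. Secreted antagonists work at the level of the ligand (SFRP, FRZB and WIF1) or of the co-receptor (DKK1 and DKK2), while R-spondins, bound by LGR receptors, raise the amount of Frizzled at the membrane. In the vertebrate heart the pathway is known for roles in development, in the epicardium and in the response of fibroblasts to injury.

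Levels are given as TPM, an abundance of transcripts corrected for length and scaled to a fixed sum per library, so levels can be compared between genes, but the sequencing depth behind them is unknown. Each library held 9844 to 15431 gene IDs with a TPM of at least 1, with the fewest in replicate 4 of each time point. Fibroblast markers, taken as a check of the labelled lineage, were all tested (14 of 14), and their summed level overlapped between stages, at 7637 to 9625 TPM in 60 dpi libraries and 8064 to 10441 TPM in 7 dpi libraries. Markers of other cells were also present. Markers are called higher or lower here by the limma test given below, at an adjusted p of 0.05. That test called 6.88% of all tested genes, 3.20% higher and 3.68% lower at 60 dpi. Macrophage and leukocyte markers summed to 2599 to 5700 TPM at 60 dpi and 9907 to 14036 TPM at 7 dpi, with 16 of 21 tested lower at 60 dpi and none higher. All 21 had a negative log2 fold change, and several of these IDs share the symbol MFAP4. The tested MPEG1 IDs and csf1rb overlapped between stages and were not called (limma adjusted p = 0.233, 0.183 and 0.921). Lymphocyte markers summed to 17.4 to 118 TPM at 60 dpi and 191 to 702 TPM at 7 dpi (4 of 8 tested lower, none higher), and 4 of the list's 11 genes (cd79b, lck, PAX5 and nkl.4) stood at 0 in each 60 dpi library. The B cell gene cd79a overlapped between stages (20.1 ± 11.5 TPM at 60 dpi, 24.8 ± 23.2 TPM at 7 dpi, SD, n = 3 and 4), and cd8a and cd4-1, below the TPM minimum, reached their highest values at 60 dpi (12.4 and 1.26 TPM). Cardiomyocyte markers were uneven at 60 dpi, with 382, 3931 and 3003 TPM, against 371 to 762 TPM at 7 dpi, and 1 of 10 tested, MYL7, was higher at 60 dpi. Of the other lists, 2 of 10 tested epicardial and 2 of 9 tested mural markers were higher at 60 dpi. Lower were 1 of 5 tested neutrophil and 2 of 8 tested erythrocyte and thrombocyte markers, and none of 12 endothelial and 2 neural markers passed. Neutrophil markers summed to 1.83 to 12.2 TPM at 60 dpi and 82.8 to 225 TPM at 7 dpi, and all 5 tested had a negative log2 fold change. Of the fibroblast markers, 3 were higher (DCN, PDGFRA and DPT) and 3 lower (an ID each of POSTN, FN1 and MDK). Their overlapping sum therefore does not show an equal content of labelled cells.

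**Figure D1:**
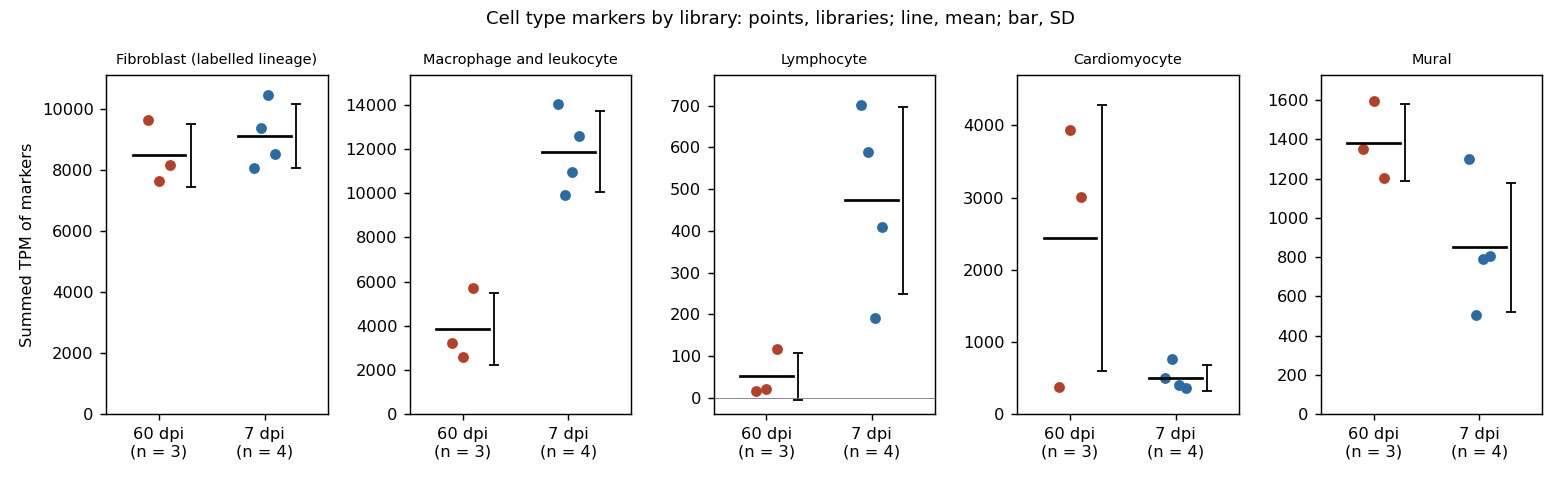
Summed TPM (vertical axis) of 5 marker lists in the 60 dpi libraries (left in each panel, n = 3) and the 7 dpi libraries (right, n = 4). Points are libraries, horizontal lines means and bars SD. Fibroblast marker sums overlap between stages, macrophage and lymphocyte sums lie lower at 60 dpi, and cardiomyocyte sums are high in replicates 2 and 4 at 60 dpi (3931 and 3003 TPM).

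Transcripts of 3 secreted Wnt antagonists rose at 60 dpi and those of 1 Wnt ligand fell. Genes were tested where 3 or more libraries had a TPM of 1 or more, which left 42 of the 77 IDs. With limma on log2(TPM + 1) and a Benjamini-Hochberg adjusted p of 0.05 over all 15130 tested genes, both SFRP1 IDs and frzb were higher and WNT2B was lower. The 4 calls were 9.52% of the tested Wnt IDs, against 6.88% of all tested genes (484 higher and 557 lower, or 3.20% and 3.68%). In 10 of the 42 (23.8%) the libraries of the 2 stages did not overlap, 6 higher and 4 lower at 60 dpi, against 21.3% of all tested genes (10.3% higher and 11.0% lower). IDs without a symbol held 19.2, 17.2 and 15.8% of TPM at 60 dpi, against 20.2, 40.0, 33.8 and 30.6% at 7 dpi. This left less of the fixed sum to named IDs at 7 dpi. With TPM rescaled over IDs that have a symbol, all calls split into 376 higher and 812 lower and the median of all tested genes was -0.26, and the same 4 Wnt IDs passed. The shares of 9.52% and 23.8% lay near their background, so the Wnt genes as a set did not stand out by the number of changes. The median log2 fold change (60 minus 7 dpi, on the log2(TPM + 1) scale) of the tested Wnt IDs was 0.30, against -0.04 for all tested genes. Of the 42, 5 passed the TPM minimum through the 7 dpi libraries alone (WNT2B, 1 WNT8A, SFRP2, 1 DVL1 and TCF7), so they could only be lower at 60 dpi, and none passed through the 60 dpi libraries alone.

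**Figure D2:**
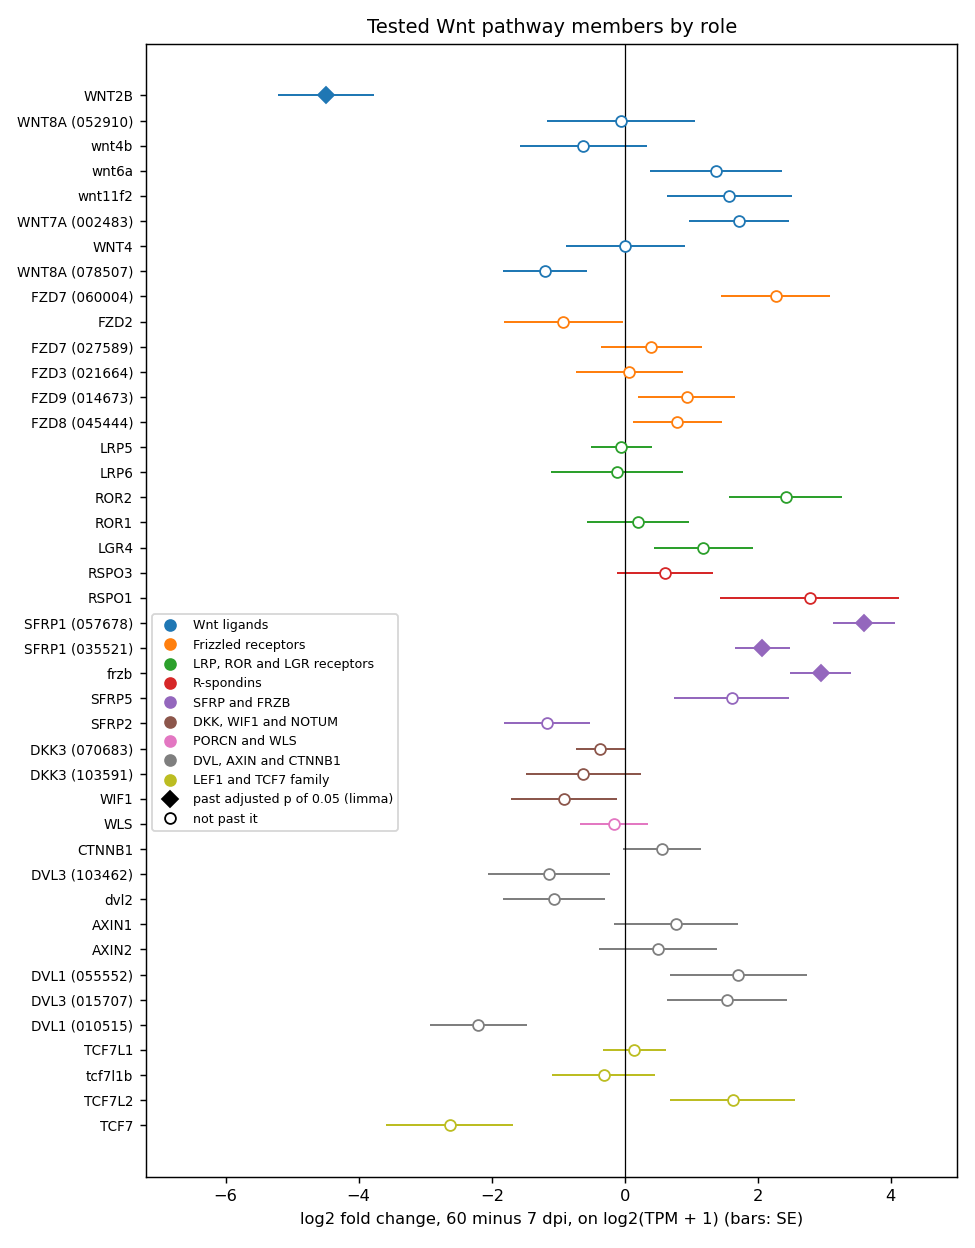
Log2 fold change (60 minus 7 dpi, on log2(TPM + 1), horizontal axis) with its SE for the 42 tested Wnt pathway IDs, grouped by role in colour and ordered within a role by mean TPM. Filled diamonds passed an adjusted p of 0.05 and open circles did not. Digits in brackets are the last 6 of the Ensembl ID. The 3 diamonds right of 0 are SFRP1 (both IDs) and frzb, and the one left of 0 is WNT2B. The positions of SFRP2, TCF7 and the second WNT8A ID, listed at 0 in all 60 dpi libraries, depend on the pseudocount.

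The secreted Frizzled-related proteins carry the Frizzled-type ligand-binding domain without a membrane anchor and bind Wnt ligands outside the cell. SFRP1 (ENSDARG00000057678) had 259.6, 98.3 and 217 TPM in the 60 dpi pools, against 16.3, 11.9, 8.54 and 21.0 TPM in the 7 dpi pools. Every 60 dpi library lay above every 7 dpi library, and the lowest 60 dpi value was 4.68 times the highest 7 dpi value. The means were 192 ± 83.5 TPM at 60 dpi (SD, n = 3) and 14.4 ± 5.41 TPM at 7 dpi (SD, n = 4), and limma gave 3.60 ± 0.47 (SE) as the log2 fold change, with adjusted p = 0.00126. Among all gene IDs of a library it ranked 373, 978 and 513 by TPM at 60 dpi, against 5706, 5301, 7049 and 4225 at 7 dpi. In bulk samples of sorted cells, fewer cells of a type and less RNA per cell cannot be told apart, and this holds for every level given here.

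The other SFRP1 ID, ENSDARG00000035521, had 161, 84.8 and 167 TPM at 60 dpi, against 28.0, 32.6, 19.8 and 48.6 TPM at 7 dpi. The stages did not overlap, but the gap was smaller, with the lowest 60 dpi value 1.74 times the highest 7 dpi value. Its log2 fold change was 2.07 ± 0.42 (SE, limma adjusted p = 0.0125), and the call was lost without 60 dpi replicate 1 (log2 fold change 1.92, adjusted p = 0.051). The balance within the pair also differed between stages. ENSDARG00000057678 gave 61.8, 53.7 and 56.5% of the TPM of both IDs at 60 dpi, against 36.8, 26.8, 30.1 and 30.2% at 7 dpi, so the less abundant ID at 7 dpi was the more abundant one at 60 dpi in every library. This share does not depend on how libraries are scaled, although RSEM divides reads among similar transcripts and values of paralogs are therefore uncertain.

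frzb, which encodes a related antagonist first known from cartilage, had 108, 95.5 and 131 TPM at 60 dpi, against 18.6, 6.52, 13.3 and 19.8 TPM at 7 dpi. Its 60 dpi libraries were the closest to each other among these antagonists, and the lowest was 4.82 times the highest 7 dpi library. The log2 fold change was 2.95 ± 0.46 (SE, limma adjusted p = 0.00385). SFRP5 had 11.5, 1.97 and 3.45 TPM at 60 dpi, against 0, 2.40, 2.13 and 0 TPM at 7 dpi, which did not pass (adjusted p = 0.308). SFRP2 was listed at 0 in all 60 dpi libraries, against 1.15, 3.60, 1.59 and 0 TPM at 7 dpi (adjusted p = 0.314), and sfrp2l was listed at 0 in every library. In these cells the family was thus nearly all frzb and SFRP1, which together gave 97.9 to 99.3% of its TPM at 60 dpi and 89.5 to 100% at 7 dpi.

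**Figure D3:**
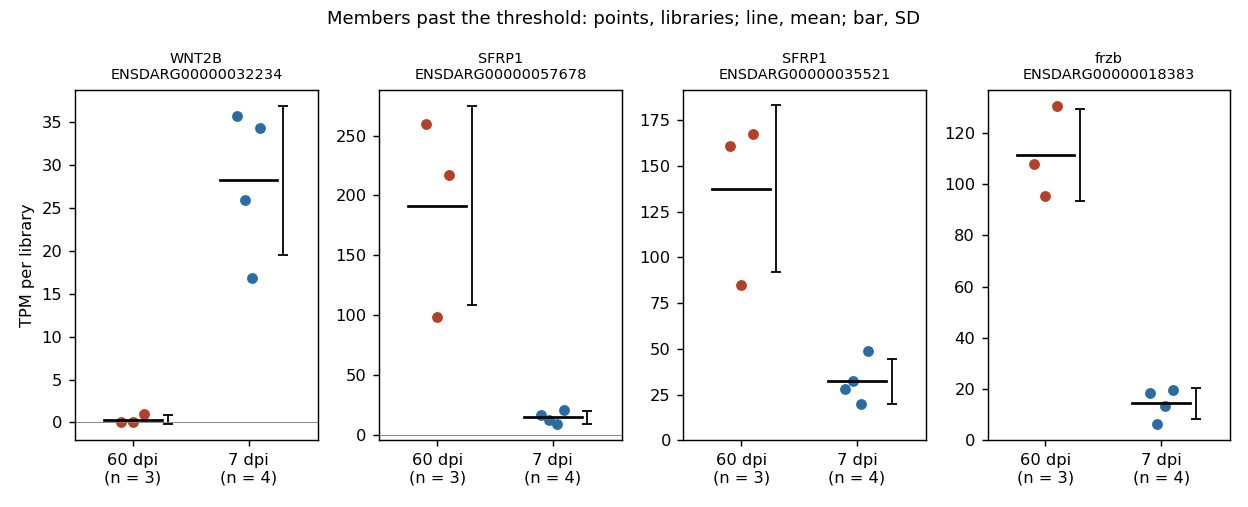
TPM per library (vertical axis, a separate linear scale per panel) of the 4 Wnt pathway IDs past the threshold, with 60 dpi libraries on the left (n = 3) and 7 dpi libraries on the right (n = 4) of each panel. Points are libraries, horizontal lines means and bars SD. Each panel shows 2 groups that do not overlap, with WNT2B near 0 at 60 dpi and both SFRP1 IDs and frzb at 84.8 TPM or more there.

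WNT2B, a ligand that can signal through beta-catenin, fell almost to nothing. WNT2B (ENSDARG00000032234) had 0, 0 and 0.96 TPM at 60 dpi, against 35.7, 26.0, 16.9 and 34.4 TPM at 7 dpi, so that the lowest 7 dpi library was 17.6 times the highest 60 dpi library. The log2 fold change was -4.49 ± 0.72 (SE, limma adjusted p = 0.00427), and its size depended on the pseudocount, from -2.61 with 5 TPM to -6.95 with 0.1 TPM. As an ID that passed the TPM minimum through the 7 dpi libraries alone, WNT2B could only be lower at 60 dpi. At 7 dpi it was the most abundant ligand ID in all 4 libraries and gave 45.4, 50.8, 39.7 and 65.0% of all ligand TPM, against 0, 0 and 2.40% at 60 dpi. The paralog wnt2ba was detected in 1 library, at 1.06 TPM (7 dpi replicate 4), and wnt2 was listed at 0 in all. Leukocyte marker sums, given above, were also lower in the 60 dpi libraries, and their part in the WNT2B result was not tested.

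No ligand took a like place at 60 dpi in every pool. The most abundant ligand was WNT8A (ENSDARG00000052910, 45.3 TPM) in replicate 1, WNT6 (19.4 TPM) in replicate 2 and wnt11f2 (14.6 TPM) in replicate 4. WNT8A, best known from patterning of the early embryo, had 45.3, 15.1 and 0 TPM at 60 dpi, against 13.4, 11.7, 8.05 and 3.80 TPM at 7 dpi. Its 60 dpi libraries spread over the whole 7 dpi range, the log2 fold change was -0.06 ± 1.11 (SE, adjusted p = 0.988), and it turned to 1.53 without 60 dpi replicate 4. The second WNT8A ID (ENSDARG00000078507) was listed at 0 in all 60 dpi libraries, against 1.55, 0, 2.03 and 2.63 TPM at 7 dpi (adjusted p = 0.288).

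The remaining tested ligands did not pass. wnt4b averaged 6.84 ± 8.56 TPM at 60 dpi (SD, n = 3) and 9.49 ± 7.98 TPM at 7 dpi (SD, n = 4), with adjusted p = 0.772. WNT7A (ENSDARG00000002483) had 1.15, 8.36 and 2.97 TPM at 60 dpi, against 0, 1.61, 0 and 0.13 TPM at 7 dpi (adjusted p = 0.208). wnt11f2, a ligand of the beta-catenin-independent branch that acts in zebrafish gastrulation, had 0, 4.74 and 14.6 TPM at 60 dpi, against 0, 1.17, 0 and 1.35 TPM at 7 dpi (adjusted p = 0.362). wnt6a had 7.42, 0.41 and 9.04 TPM at 60 dpi, against 0, 0, 0.85 and 6.15 TPM at 7 dpi, and WNT4 had 7.72, 0 and 0 TPM at 60 dpi, against 0.55, 2.62, 2.15 and 0 TPM at 7 dpi (adjusted p = 0.465 and 0.999). Values of these ligands were scattered among pools of one stage, several at 0 beside pools of the same stage with several TPM.

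Of 26 ligand IDs, 18 lay below the TPM minimum. Among them WNT6, WNT11, WNT16, WNT5B, WNT9A, WNT7A (ENSDARG00000044827), WNT3A and wnt2ba reached 1 TPM in 1 or 2 libraries, with highest values of 19.4, 9.48, 5.77, 6.68, 5.25, 4.83, 1.49 and 1.06 TPM. WNT16 was detected in 2 libraries, both at 60 dpi (5.77 TPM in replicate 2 and 5.76 TPM in replicate 4), and WNT5B in 2 of 3 libraries at 60 dpi (6.68 and 3.29 TPM) and 1 of 4 at 7 dpi (0.62 TPM). WNT8B and WNT7B stayed under 1 TPM, at no more than 0.91 and 0.55 TPM. WNT1, wnt2, wnt3, WNT5A, wnt7ba, WNT9B, WNT10A and WNT10B were listed at 0 in all 7 libraries. Summed ligand TPM overlapped between stages, with 79.8, 79.5 and 39.9 TPM at 60 dpi, against 78.6, 51.2, 42.5 and 53.0 TPM at 7 dpi.

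**Figure D4:**
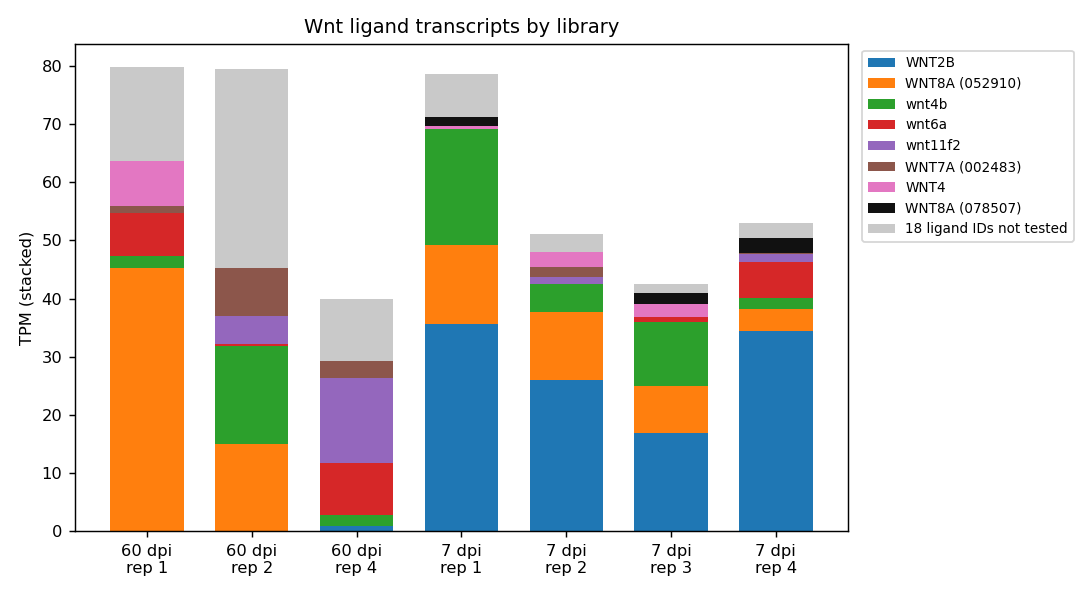
Stacked TPM of Wnt ligand IDs in each library (vertical axis), with the 60 dpi libraries on the left and the 7 dpi libraries on the right. Colours are the 8 tested ligand IDs and light grey the sum of the 18 not tested. WNT2B makes up 39.7 to 65.0% of each 7 dpi bar and at most 2.40% of a 60 dpi bar, while the bar heights overlap (39.9 to 79.8 TPM at 60 dpi, 42.5 to 78.6 TPM at 7 dpi).

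The machinery of ligand release was measured mainly through WLS. WLS had 41.8, 27.5 and 30.0 TPM at 60 dpi, against 68.2, 37.3, 46.1 and 15.2 TPM at 7 dpi, and the 60 dpi libraries lay inside the 7 dpi range (log2 fold change -0.17 ± 0.51, SE, limma adjusted p = 0.897). PORCN (ENSDARG00000052455) lay below the TPM minimum, with 1.86, 3.62 and 0.07 TPM at 60 dpi, against 0, 0.27, 0 and 0 TPM at 7 dpi, and the other PORCN ID was listed at 0 in all libraries.

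Among Frizzled receptors, which bind the ligands, FZD7 (ENSDARG00000060004) had the highest mean at 60 dpi, while FZD2 had the highest at 7 dpi. This FZD7 ID had 14.5, 22.7 and 13.8 TPM at 60 dpi, against 6.36, 3.68, 3.47 and 0.15 TPM at 7 dpi. The stages did not overlap, and the lowest 60 dpi library was 2.17 times the highest 7 dpi library. With a log2 fold change of 2.27 ± 0.82 (SE) it did not pass over all genes (limma adjusted p = 0.127), except under quantile normalization (adjusted p = 0.0482). The other FZD7 ID (ENSDARG00000027589) averaged 7.06 ± 1.67 TPM at 60 dpi (SD, n = 3) and 5.66 ± 3.17 TPM at 7 dpi (SD, n = 4), with adjusted p = 0.823. Within the pair, ENSDARG00000060004 gave 65.7, 81.4 and 62.2% of TPM at 60 dpi, against 45.9, 29.0, 46.1 and 6.82% at 7 dpi, so the leading FZD7 ID differed between stages in every library, as it did for SFRP1.

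FZD2 had 5.57, 9.40 and 0.24 TPM at 60 dpi, against 4.75, 5.13, 8.09 and 14.0 TPM at 7 dpi, with overlapping stages (adjusted p = 0.611). FZD3 (ENSDARG00000021664), FZD8 (ENSDARG00000045444) and FZD9 (ENSDARG00000014673) never exceeded 5.63 TPM and did not pass (adjusted p = 0.978, 0.544 and 0.505). A further 5 Frizzled IDs lay below the TPM minimum, namely FZD5, FZD10 and the second IDs of FZD3, FZD8 and FZD9, each reaching 1 TPM in 1 library and no more than 5.02 TPM.

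The co-receptor LRP5 varied little. It had 23.3, 22.4 and 14.7 TPM at 60 dpi, against 22.7, 18.3, 20.2 and 21.0 TPM at 7 dpi, with a limma log2 fold change of -0.05 ± 0.46 (SE) and adjusted p = 0.967. LRP6 was more scattered, with 7.77, 23.9 and 0.54 TPM at 60 dpi, against 5.28, 2.41, 7.79 and 16.2 TPM at 7 dpi (adjusted p = 0.967). Neither gave a difference larger than the spread between pools.

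ROR2, a receptor tyrosine kinase that binds ligands of the WNT5A type and signals without beta-catenin, had 19.2, 9.03 and 18.3 TPM at 60 dpi, against 1.65, 3.92, 4.54 and 0.04 TPM at 7 dpi. The stages did not overlap, with the lowest 60 dpi library 1.99 times the highest 7 dpi library, but the log2 fold change of 2.42 ± 0.85 (SE) did not pass (limma adjusted p = 0.117). Its relative ROR1 averaged 2.71 ± 1.57 TPM at 60 dpi (SD, n = 3) and 2.06 ± 0.63 TPM at 7 dpi (SD, n = 4), with adjusted p = 0.921. The ligand ID WNT5A was listed at 0 in every library. Its relative WNT5B, below the TPM minimum, had 6.68, 3.29 and 0 TPM at 60 dpi, against 0, 0.62, 0 and 0 TPM at 7 dpi.

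LGR4, a receptor for R-spondins, had 4.87, 4.73 and 1.77 TPM at 60 dpi, against 1.54, 0.73, 1.46 and 0.48 TPM at 7 dpi. Its stages did not overlap but lay close (the lowest 60 dpi value was 1.15 times the highest 7 dpi value, adjusted p = 0.385), and lgr6 was listed at 0 throughout. RSPO3 was detected in every library, with 17.7, 4.81 and 49.8 TPM at 60 dpi, against 12.8, 7.85, 12.9 and 9.80 TPM at 7 dpi (log2 fold change 0.60 ± 0.72, SE, adjusted p = 0.694). The 60 dpi pools enclosed the 7 dpi range.

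RSPO1 was uneven at 60 dpi. It had 0.04, 52.1 and 50.0 TPM there, against 0.09, 5.53, 1.53 and 0 TPM at 7 dpi, so that replicates 2 and 4 at 60 dpi lay above all 7 dpi libraries and replicate 1 did not. The log2 fold change was 2.78 ± 1.35 (SE, limma adjusted p = 0.252), and without 60 dpi replicate 1 it was 4.66 and passed (adjusted p = 0.027). The same libraries held the high cardiomyocyte marker sums (382, 3931 and 3003 TPM in replicates 1, 2 and 4), and the part of those cells in the RSPO1 values was not tested. RSPO2 reached 1.02 TPM in 1 library (60 dpi replicate 2), and RSPO4 was listed at 0 in all.

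The DKK group was carried by DKK3, a divergent member of the family whose action on Wnt signals was not tested here. DKK3 (ENSDARG00000070683) had 41.8, 44.5 and 63.8 TPM at 60 dpi, against 86.9, 64.3, 57.5 and 51.1 TPM at 7 dpi. Its mean at 7 dpi was the highest of the 77 IDs, and the stages overlapped (log2 fold change -0.37 ± 0.36, SE, limma adjusted p = 0.616). The other DKK3 ID (ENSDARG00000103591) had 0.06, 4.32 and 0.08 TPM at 60 dpi, against 2.68, 3.06, 3.20 and 0 TPM at 7 dpi (adjusted p = 0.741). WIF1, which binds Wnt ligands directly, had 1.68, 0 and 0 TPM at 60 dpi, against 6.27, 2.04, 1.12 and 0 TPM at 7 dpi (adjusted p = 0.557).

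The classic inhibitors of LRP5 and LRP6 in the DKK group were scarcely seen. dkk1b was detected in 1 library (2.69 TPM, 7 dpi replicate 3), and dkk1a and dkk2 were listed at 0 in all 7. notum2 reached 1.98 TPM in 60 dpi replicate 1 and 2.74 TPM in 7 dpi replicate 1, and NOTUM, whose enzyme removes the lipid from Wnt ligands, was listed at 0 throughout. Among IDs of the name rule, transcripts of the antagonist families were thus mainly those of SFRP1, frzb and the divergent DKK3. SFRP1 and frzb rose at 60 dpi, and DKK3 did not pass. The rule leaves out other antagonists, such as SOST and SOSTDC1. SOSTDC1 (ENSDARG00000068892) had 57.1, 18.5 and 4.41 TPM at 60 dpi, against 4.53, 3.27, 2.68 and 0 TPM at 7 dpi. SOST had 32.8, 2.93 and 0 TPM, against 2.54, 2.50, 0.19 and 0 TPM. Neither passed (limma adjusted p = 0.143 and 0.527). The second SOSTDC1 ID lay below the TPM minimum, with 47.7 TPM in 7 dpi replicate 4.

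Inside the cell, CTNNB1, the beta-catenin gene, had 59.8, 18.5 and 43.5 TPM at 60 dpi, against 42.1, 27.8, 32.0 and 9.21 TPM at 7 dpi. The stages overlapped (log2 fold change 0.56 ± 0.59, SE, limma adjusted p = 0.642). AXIN2, itself a feedback target of beta-catenin, averaged 7.03 ± 5.04 TPM at 60 dpi (SD, n = 3) and 5.17 ± 5.26 TPM at 7 dpi (SD, n = 4), with adjusted p = 0.805. AXIN1 had 8.12, 4.00 and 9.62 TPM at 60 dpi, against 8.17, 6.48, 5.56 and 0 TPM at 7 dpi (adjusted p = 0.697).

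Dishevelled genes, which relay the signal from Frizzled, did not pass, and their IDs leaned in different directions. DVL1 (ENSDARG00000010515) had 0.56, 0 and 0.09 TPM at 60 dpi, against 3.57, 4.15, 7.72 and 3.47 TPM at 7 dpi, with stages that did not overlap (lowest 7 dpi value 6.20 times the highest 60 dpi value, log2 fold change -2.21 ± 0.73, SE, limma adjusted p = 0.096). This ID passed the TPM minimum through the 7 dpi libraries alone, so it could only be lower at 60 dpi. The other DVL1 ID (ENSDARG00000055552) had 0, 2.54 and 29.2 TPM at 60 dpi, against 0.44, 0.31, 1.25 and 0.06 TPM at 7 dpi (adjusted p = 0.367). dvl2 had 7.51, 5.95 and 0.90 TPM at 60 dpi, against 8.52, 7.83, 10.1 and 10.0 TPM at 7 dpi, and the stages were apart by a factor of only 1.04 (adjusted p = 0.462).

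DVL3 (ENSDARG00000103462) had 6.02, 13.7 and 0.05 TPM at 60 dpi, against 9.21, 12.0, 6.35 and 11.5 TPM at 7 dpi (adjusted p = 0.519). The second DVL3 ID (ENSDARG00000015707) had 2.46, 5.34 and 14.8 TPM at 60 dpi, against 3.59, 1, 2.80 and 0 TPM at 7 dpi (adjusted p = 0.355). In 60 dpi replicate 4, one of the libraries with the fewest detected genes, dvl2 and the first DVL3 ID were at their lowest while the other DVL1 and DVL3 IDs were at their highest.

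The nuclear partners of beta-catenin were led by TCF7L1, a factor that represses targets in the absence of the signal. TCF7L1 had 27.4, 25.4 and 30.3 TPM at 60 dpi, against 43.1, 23.6, 26.2 and 14.5 TPM at 7 dpi, with a limma log2 fold change of 0.14 ± 0.47 (SE) and adjusted p = 0.909. tcf7l1b had 24.1, 4.50 and 8.92 TPM at 60 dpi, against 13.0, 9.16, 5.41 and 39.3 TPM at 7 dpi (adjusted p = 0.868). TCF7L2 had 20.0, 22.1 and 13.8 TPM at 60 dpi, against 16.5, 4.81, 14.3 and 0 TPM at 7 dpi (adjusted p = 0.348). None of the 3 differed beyond the spread between pools.

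TCF7, which is also a T cell factor, was listed at 0 in all 60 dpi libraries, against 3.74, 0.85, 4.28 and 31.1 TPM at 7 dpi. The stages did not overlap, and it did not pass (limma adjusted p = 0.13). TCF7 met the TPM minimum through the 7 dpi libraries alone, so it could only be lower at 60 dpi. Lymphocyte marker sums in the same 7 dpi libraries were 702, 589, 191 and 410 TPM. Much of each sum came from nkl.2, at 445, 429, 85.7 and 238 TPM. The T cell genes lck (3.61, 3.09, 3.11 and 0 TPM) and ZAP70 (7.00, 2.16, 1.23 and 0.45 TPM) were lowest in replicate 4, where TCF7 was highest. There il7r had 16.6 TPM, against 22.1, 4.34 and 5.43 TPM in replicates 1 to 3, and the B cell gene cd79a was at its highest (58.2 TPM). The part of lymphocytes in the TCF7 values was not tested. LEF1 lay below the TPM minimum and reached 1.98 TPM in 60 dpi replicate 1.

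Summed by role, the antagonists of the SFRP and FRZB group had 539.8, 281 and 518 TPM at 60 dpi, against 64.0, 57.0, 45.3 and 89.4 TPM at 7 dpi. They made up 54.4, 38.8 and 53.4% of the TPM of all 77 Wnt IDs at 60 dpi, against 12.0, 15.0, 11.8 and 21.8% at 7 dpi. Relative to all Frizzled transcripts they stood at 11.3, 6.04 and 21.5 to 1 at 60 dpi, against 2.57, 2.71, 2.61 and 4.42 to 1 at 7 dpi. Relative to all ligand transcripts they stood at 6.77, 3.53 and 13.0 to 1 at 60 dpi, against 0.81, 1.11, 1.07 and 1.69 to 1 at 7 dpi. These ratios are taken within a library and do not depend on its scaling, and in both the stages did not overlap. No p-value is given for sums over these genes, since the list was chosen with earlier results of the data known.

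**Figure D5:**
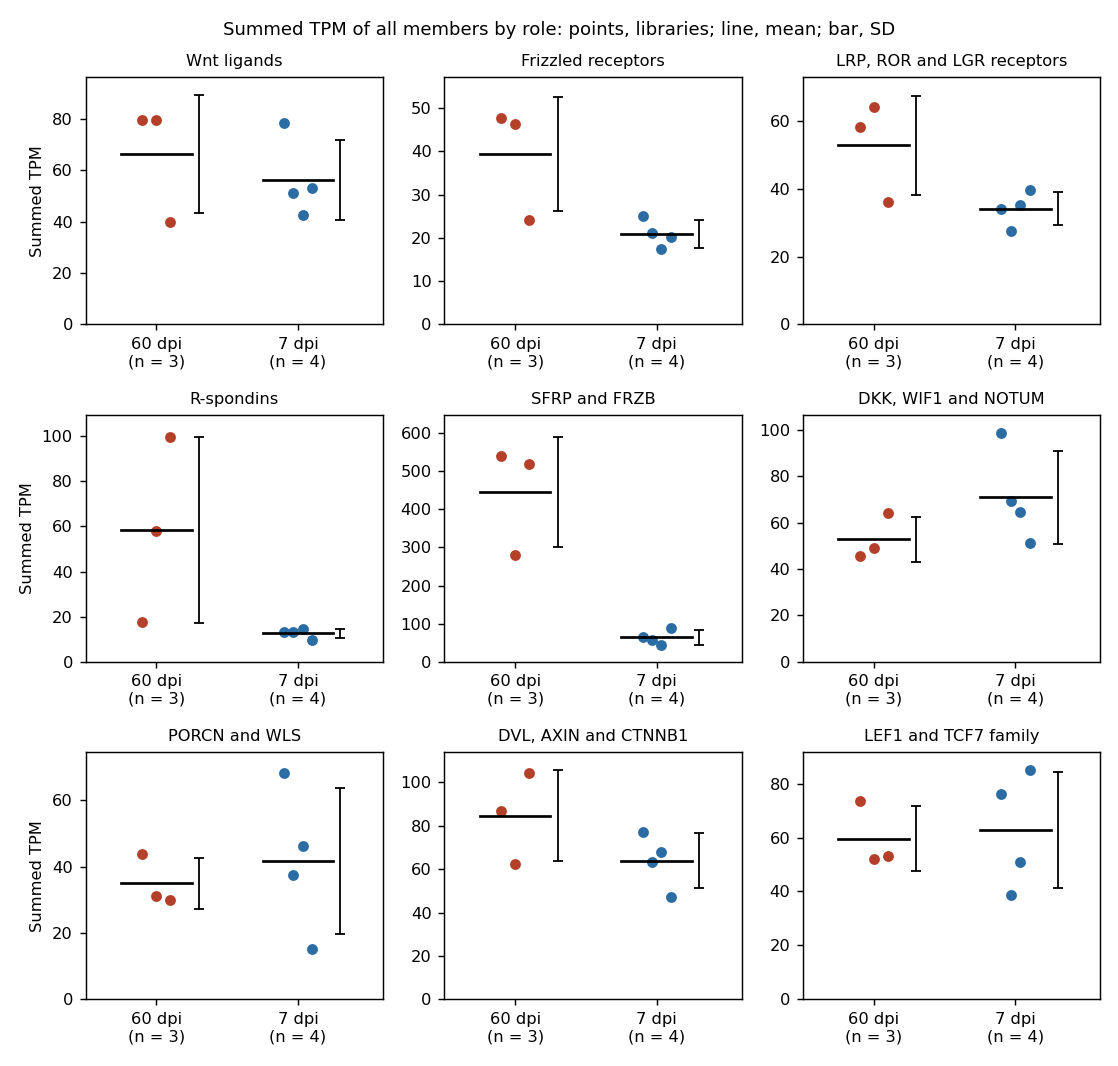
Summed TPM of all Wnt pathway IDs of each role (vertical axis, a separate linear scale from 0 in each panel) at 60 dpi (left, n = 3) and 7 dpi (right, n = 4). Points are libraries, horizontal lines means and bars SD. The SFRP and FRZB panel has the widest gap, 281 TPM or more at 60 dpi against 89.4 TPM or less at 7 dpi, while sums of ligands, of PORCN and WLS, of DVL, AXIN and CTNNB1, and of LEF1 and TCF7 family IDs overlap.

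Other sums were closer. Frizzled IDs summed to 47.7, 46.4 and 24.1 TPM at 60 dpi, against 24.9, 21.0, 17.3 and 20.2 TPM at 7 dpi, which overlapped through 60 dpi replicate 4. R-spondins summed to 17.7, 57.9 and 99.8 TPM at 60 dpi, against 13.0, 13.4, 14.4 and 9.80 TPM at 7 dpi, which did not overlap and was spread over the 60 dpi pools. LRP, ROR and LGR receptors summed to 58.3, 64.1 and 36.2 TPM at 60 dpi, against 34.0, 27.7, 35.3 and 39.6 TPM at 7 dpi, and overlapped.

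Further Wnt pathway genes were read from 4 lists and described by their counts. The lists were chosen with earlier results of these data known, so their shares describe them and test nothing. Among 36 tested cytoplasmic and transcriptional components, such as the kinases and co-repressors of the pathway, none rose or fell at the adjusted threshold (limma, median log2 fold change 0.12, against -0.04 for all tested genes). Among 29 tested planar cell polarity and Wnt/calcium components none rose or fell either (median 0.35). Their libraries did not overlap in 6 of 29 (20.7%, against 21.3% of all tested genes), with PRICKLE1, both DAAM1 IDs, DAAM2 and MAPK10 higher at 60 dpi and VANGL2 lower. VANGL2, a core polarity gene, had 7.86, 12.4 and 13.6 TPM at 60 dpi, against 41.0, 20.1, 18.2 and 19.7 TPM at 7 dpi, without overlap (adjusted p = 0.282). DAAM2, a formin that binds Dishevelled, had 15.6, 25.7 and 16.1 TPM at 60 dpi, against 0, 8.79, 7.06 and 0 TPM at 7 dpi, again without overlap (adjusted p = 0.13). These genes were singled out after their values were seen.

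Among 21 tested membrane modulators of Wnt reception, 1 rose and 2 fell (14.3% called, against 6.88% of all tested genes, and median log2 fold change 0.32). TMEM198 (ENSDARG00000034685), a membrane protein that promotes LRP6 phosphorylation, had 79.7, 37.2 and 85.6 TPM at 60 dpi, against 4.29, 4.08, 4.13 and 0.10 TPM at 7 dpi (log2 fold change 4.20 ± 0.72, SE, limma adjusted p = 0.00612). The other TMEM198 ID (ENSDARG00000042115) leaned the other way and did not pass. Its stages overlapped (log2 fold change -0.612 ± 1.099, SE, limma adjusted p = 0.811). The glypican gpc1b (ENSDARG00000090585), a heparan sulphate proteoglycan of the cell surface, fell to 20.9, 4.34 and 8.14 TPM at 60 dpi, against 76.5, 46.3, 58.6 and 70.7 TPM at 7 dpi (adjusted p = 0.0123), a call lost without the mean-variance trend (adjusted p = 0.054) and with the replicate number as a block (adjusted p = 0.0581). SULF2 (ENSDARG00000013838), whose enzyme trims sulphate from such chains, fell to 31.9, 48.0 and 63.2 TPM at 60 dpi, against 111, 122, 112 and 133 TPM at 7 dpi (adjusted p = 0.0343). That call was lost in 10 of 19 alternatives, among them leaving out any 1 library other than 60 dpi replicate 4 (adjusted p between 0.0513 and 0.111). The related sulfatase SULF1 leaned the other way, with 29.0, 27.6 and 53.9 TPM at 60 dpi, against 7.60, 11.9, 25.3 and 11.5 TPM at 7 dpi, without overlap (adjusted p = 0.155). A further sulfatase, sulf2a, averaged 16.2 ± 12.7 TPM at 60 dpi (SD, n = 3) and 8.74 ± 5.48 TPM at 7 dpi (SD, n = 4), with adjusted p = 0.586.

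Among 24 tested Wnt target genes, 4 rose and none fell (16.7% called, against 6.88% of all tested genes and 3.20% called higher). Of the 24, 18 had a positive log2 fold change (75.0%, against 48.3% of all tested genes), with a median of 0.83. As the list was chosen with earlier results of these data known, these shares are no test of it. IDs of the name rule are counted apart, so the list holds neither AXIN2, which did not pass, nor LEF1, which was not tested. The 4 called genes were MYC with its relative mych and CSRNP1 with its relative csrnp1a. MYC (ENSDARG00000007241), a growth regulator that many signals induce, had 727, 655 and 759.5 TPM at 60 dpi, against 64.1, 39.9, 49.8 and 6.22 TPM at 7 dpi, and limma gave 4.50 ± 0.62 (SE) as the log2 fold change, with adjusted p = 0.00184. Its relative mych had 158, 99.1 and 72.5 TPM at 60 dpi, against 17.4, 22.0, 43.8 and 3.63 TPM at 7 dpi (adjusted p = 0.036). CSRNP1 (ENSDARG00000038429), a nuclear protein first described as induced by AXIN1, had 1941, 1258 and 1164 TPM at 60 dpi, against 733, 391, 429 and 606 TPM at 7 dpi (adjusted p = 0.0143). csrnp1a had 27.0, 57.4 and 71.4 TPM at 60 dpi, against 10.0, 3.79, 8.27 and 3.62 TPM at 7 dpi (adjusted p = 0.0152). AXIN1 is part of the destruction complex, and whether CSRNP1 or csrnp1a responds to beta-catenin here was not tested. In all 4 called genes the stages did not overlap, but these genes were picked by a test on the same values. Of all 24 tested, 6 did not overlap, all higher at 60 dpi. The share among all tested genes was 21.3% (10.3% higher and 11.0% lower). The other MYC ID (ENSDARG00000045695) was listed at 0 in 60 dpi replicate 4 and did not pass. Its stages overlapped (log2 fold change 0.85 ± 1.104, SE, limma adjusted p = 0.723).

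The MYC call held in all 19 alternatives, and the other 3 target calls did not. The mych call was lost in 9, namely without any 1 of the 60 dpi libraries or without 7 dpi replicate 1 or 2 (adjusted p between 0.0574 and 0.122), with no filter on low TPM (0.106), without the mean-variance trend (0.109), with TPM rescaled over IDs with a symbol (0.058) and with a pseudocount of 0.1 (0.0606). The csrnp1a call was lost in 3, namely without 60 dpi replicate 2 or 4 (adjusted p = 0.0718 and 0.0636) and with the replicate number as a block (0.0752). The CSRNP1 call was lost in 5. It was lost without 60 dpi replicate 1 (adjusted p = 0.0541), with the block (0.0794) and without the trend (0.155). It was also lost without 7 dpi replicate 3 and in replicates 1, 2 and 4 without a block, which are the same fit (0.0503 in both).

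Of targets often read as signs of beta-catenin activity, MYC passed, as given above, and SP5, NKD1, CCND1, ZNRF3 and AXIN2 did not. These genes were named here after their values were seen, and ZNRF3 comes from the membrane modulator list. CCND1 had 9.56, 6.25 and 2.40 TPM at 60 dpi, against 2.56, 0.78, 2.80 and 0 TPM at 7 dpi (limma adjusted p = 0.325). SP5 had 41.5, 51.9 and 72.2 TPM at 60 dpi, against 34.1, 33.7, 21.5 and 41.1 TPM at 7 dpi, which barely separated (adjusted p = 0.314). NKD1, a Dishevelled-binding feedback inhibitor, had 1.09, 2.53 and 31.7 TPM at 60 dpi, against 5.92, 0, 1.53 and 0 TPM at 7 dpi (adjusted p = 0.435). ZNRF3, a ligase that removes Frizzled from the membrane and is induced by the pathway, had 7.06, 4.28 and 6.25 TPM at 60 dpi, against 2.47, 1.95, 1.03 and 0 TPM at 7 dpi, without overlap (adjusted p = 0.251). AXIN2, given above, overlapped between stages.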

How the data were processed

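RNA-seq was read from 7 libraries of sorted cells, each 1 pool of hearts. Per the labels' protocols, libraries were made from 0.2 to 0.6 ng of RNA with an amplifying kit, and 60 nt single reads were taken. Amplification from so little RNA can lose rare transcripts, so a 0 need not mean absence. The authors deposited TPM values for 31388 gene IDs. Per the submitters' processing notes, CASAVA 1.8.2, cutadapt, RSEM 1.2.25 and genome build Zv9 were used, with the aligner and the annotation not given in the sources used here. The supplied name table gave symbols to 25925 IDs (82.6%). No genome or sequences were used, so no coordinates or sequences are given.

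The 15130 genes at 1 TPM or more in 3 or more libraries were fitted with limma 3.58.1 (R 4.3.3) on log2(TPM + 1), with stage alone in the model and the trend option on. P-values are two-sided and Benjamini-Hochberg adjusted over all tested genes at 0.05, fold changes are 60 minus 7 dpi, and low TPM understates them. With no statement in the labels that pools share animals or days, p-values measure the spread between pools. The fit was also run on simulated normal values, which do not copy the zeros of these data, so that run cannot show that the fit suits them. Python 3.11.15, pandas 2.3.3 and matplotlib 3.10.9 made tables and figures. Members and lists were chosen with earlier results of these data known. Of 260 list entries 236 were matched, 165 by symbol and 71 without the paralog suffix, a step added once the name table was in hand. Besides those printed, the marker lists were epicardium, mural cells, endothelium, neutrophils, erythrocytes and thrombocytes, and neural cells. Values per library were given for members and pathway list IDs past the threshold and for members whose stages did not overlap. They were also given for the 2 most abundant members of each role and for some further IDs. Other tested members with zeros, for which means mislead, have them too, except FZD3, FZD8 and FZD9. Role sums have no test, unlike first planned. Alternatives were 3 pseudocounts, 2 filters, 3 scalings, no trend, the replicate block, and libraries left out. The fit without 7 dpi replicate 3 and that of replicates 1, 2 and 4 without a block are the same fit. It enters counts over the 19 alternatives under both names.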

Additional observations from a re-analysis of the deposited data

Results flagged for a closer look

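In 7 of 51 groups of 4 libraries of the 7 dpi stage, 1 library lay far from the other 3. The rule flags about 1 in 20 groups of independent normal values. These TPM hold many zeros and some groups are sums of others, so that rate does not apply and no excess is read from the count. The highest values that stood apart were wnt6a at 6.15 TPM, FZD3 (ENSDARG00000021664) at 3.97 TPM and TCF7 at 31.14 TPM in replicate 4, WNT7A (ENSDARG00000002483) at 1.61 TPM and FZD9 (ENSDARG00000014673) at 1.17 TPM in replicate 2, and DVL1 (ENSDARG00000010515) at 7.72 TPM in replicate 3. The lowest was DKK3 (ENSDARG00000103591), listed at 0.00 TPM in replicate 4 while the other 3 libraries held 2.68 to 3.20 TPM. Replicate 4 had the fewest gene IDs at 1 TPM or more (9844). None of these 7 IDs passed the test between stages, and groups of 3 at 60 dpi were too small for this rule.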

How the results depend on the processing

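WNT2B, SFRP1 (ENSDARG00000057678) and frzb kept direction and call in all 19 alternatives. WNT2B passed the TPM minimum through the 7 dpi libraries alone, so its kept direction is no support. SFRP1 (ENSDARG00000035521) kept its direction and lost its call without the mean-variance trend (adjusted p = 0.076), with the replicate block (0.0778) and without 60 dpi replicate 1 (0.051). FZD7 (ENSDARG00000060004) passed under quantile normalization, and RSPO1 without 60 dpi replicate 1. Over all genes, calls numbered 596 with no filter on low TPM (266 higher, 330 lower), 477 without the trend (186 higher, 291 lower), 571 in replicates 1, 2 and 4 of both stages without a block (279 higher, 292 lower) and 300 with the replicate block there (138 higher, 162 lower). Leaving out 1 library gave 571 to 1127 calls, 213 to 458 higher and 292 to 669 lower, so the background share depends on these choices, and the cause was not tested. Same-numbered libraries deviated together only weakly (correlations 0.011, 0.016 and 0.026). Differently numbered ones had -0.029 to 0.018, all negative except 60 dpi replicate 1 with 7 dpi replicate 2 (0.018). Libraries were first centred on their stage mean, so positive correlations in some pairs force negative ones in others. The signs therefore cannot show pairing. The numbers were not taken as pairs because the labels do not say that they mark shared animals or days.

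Log2 fold changes changed sign in 44 cases, with the repeated fit counted under both names. All were of IDs that did not pass, and the cause was not tested. With a pseudocount of 5 WNT8A (ENSDARG00000052910) was at 0.324 and LRP6 at 0.083. With 0.1 and 0.5, WNT4 was at -0.893 and -0.183 and FZD3 (ENSDARG00000021664) at -0.518 and -0.025. With TPM rescaled over IDs with a symbol, WNT4 was at -0.184, FZD3 at -0.104 and TCF7L1 at -0.121, and with median-ratio scaling WNT4 was at -0.017. With quantile normalization LRP6 was at 0.508 and DKK3 (ENSDARG00000103591) at 0.056. In replicates 1, 2 and 4, FZD3 was at -0.033 with and without the block. Without replicate 4 of both stages the values were 1.206 for WNT8A, 0.273 for FZD2, -0.051 for FZD7 (ENSDARG00000027589), 0.159 for LRP5, 1.367 for LRP6, -0.195 for RSPO3, -0.001 for CTNNB1, 0.036 for DVL3 (ENSDARG00000103462), -0.182 for AXIN1, -0.177 for TCF7L1 and 0.278 for tcf7l1b. Leaving out 1 library gave WNT8A from -1.235 to 1.532, WNT4 from -1.036 to 0.526, FZD3 from -0.323 to 0.752, LRP5 from -0.168 to 0.148, LRP6 from -1.037 to 0.971, ROR1 from -0.068 to 0.604, RSPO3 from -0.160 to 1.405, WLS from -0.575 to 0.124, TCF7L1 from -0.111 to 0.393 and tcf7l1b from -0.905 to 0.197. Depth is unknown, so low TPM carries no interval, and 3 pools at 60 dpi limit what can pass.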
